A study of Mus musculus with 6 samples.

Results

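The genes described here are 8 genes that cultured astrocytes use to take up and metabolize the transmitters glutamate, GABA and glycine: Slc1a2, Slc1a3, Glul, Glud1, Slc38a3, Slc6a11, Slc6a9 and Abat. Their rows were picked by gene name, with earlier results of these data known, and each is 1 of the 55357 genes listed in the deposited table. All 8 had a mean of at least 10 normalized counts over the 6 cultures and so were among the 15280 genes tested. Astrocytes from the cortex of C57BL/6 mouse embryos were cultured, and RNA was sequenced from 3 cultures transfected with a plasmid carrying FLAG-tagged BRAF K499E behind the CMV promoter (KE) and from 3 nontransfected cultures of naive genotype (NT). The time given for collection is 48 hours after transfection, and the labels repeat the transfection text for NT although their treatment entry is nontransfected. CMV is not restricted to astrocytes, the share of cells that took up the plasmid is not stated, and no culture with an empty plasmid or BRAF WT was analysed here, so the effect of BRAF KE and that of transfection cannot be told apart. Nothing in the labels says that the 3 cultures of a group came from separate animals, so the p-values measure the spread between these cultures only.

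Astrocytes clear glutamate from the synaptic cleft with sodium-driven transporters, mainly GLT-1 (Slc1a2) and GLAST (Slc1a3). Inside the cell, glutamine synthetase (Glul) turns glutamate into glutamine, which the transporter SNAT3 (Slc38a3) can release for neurons to use again, while glutamate dehydrogenase (Glud1) feeds glutamate into mitochondrial metabolism. GABA is taken up by GAT3 (Slc6a11) and broken down by GABA transaminase (Abat), and glycine is taken up by GlyT1 (Slc6a9).

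The transfected gene, Braf, followed the treatment labels, with 35025, 34933 and 40978 normalized counts in KE against 925, 811 and 946 in NT. The approximate depth was 24500000 to 34100000 reads per culture, lowest in KE replicate 2. Of 12 astrocyte markers, 11 were tested, with a median log2FC of 0.02. In KE, 5 of them were higher, among them Gfap (log2FC 0.87) and Aldh1l1 (0.72), 2 were lower (Gja1 with -0.46 and Fgfr3 with -0.23) and 4 were not called, and S100b had at most 31.5 normalized counts in any culture and Gjb6 at most 1.83. All 12 microglia and macrophage markers were lower in KE. Their summed level was 3779 to 5775 normalized counts in KE and 40416 to 47534 in NT. By mean normalized count in NT, not divided by length, Itgam (log2FC -4.07) and C1qa (-3.12) were the highest of them. In KE the order differed, with Itgam (mean 434) below Ctss (mean 817). Of 9 tested neuron markers, 2 were higher (Tubb3 with a log2FC of 0.43 and Nefl with 1.73), 3 were lower, among them Map2 (-0.51) and Gap43 (-0.55), and 4 were not called. Their sum, of which Map2 makes the largest part, was 7960 to 8189 in KE and 10585 to 11264 in NT. Of 9 tested oligodendrocyte lineage markers, 1 was higher and 7 were lower, with a sum of 29787 to 34867 in KE and 38171 to 38399 in NT, in which Olig1 (log2FC -0.20) and Olig2 (-0.55) were abundant in every culture. Of 8 tested vascular and mesenchymal markers, 3 were higher and 2 lower. Their sums were 2087 to 2264 in KE and 1854 to 2069 in NT, and summed astrocyte markers 109726 to 114015 in KE and 81928 to 87566 in NT. In bulk RNA, fewer cells of a type and less RNA per cell cannot be told apart, and the part of these shifts in the results on the 8 genes was not tested.

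**Figure D1:**
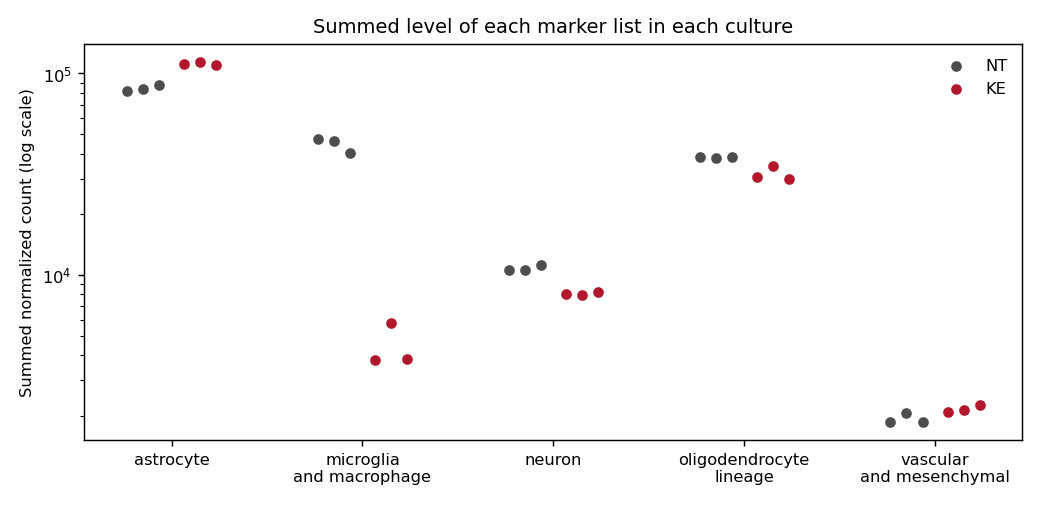
Summed normalized count of each fixed marker list in each culture on a log axis, with 3 NT cultures in grey and 3 KE cultures in red. The microglia and macrophage sum lies between 3779 and 5775 in KE and between 40416 and 47534 in NT, the widest separation of the 5 lists.

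Most of the 8 genes were higher in the KE cultures than in the NT cultures. In the limma comparison over all tested genes, 6 of the 8 were upregulated, 1 (Slc6a11) was downregulated and 1 (Glud1) did not pass the test. The background of such calls was high, at 51.3% of all tested genes, with 25.3% higher and 26.0% lower in KE. The median log2FC of the 8 genes was 0.45, where that of all tested genes was 0.00. For each of the 8, the ranges of KE and NT were separate, with 7 higher and 1 lower in KE, where 59.9% of all tested genes had separate ranges (30.1% higher and 29.9% lower in KE). The size of the differences varied widely among the 8, from a log2FC of 1.69 for Slc6a9 to -1.57 for Slc6a11, and both of these were the least abundant of the 8. For a single value, 3 cultures in each group do not let an exact permutation test reach a two-sided p below 0.1.

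**Figure D2:**
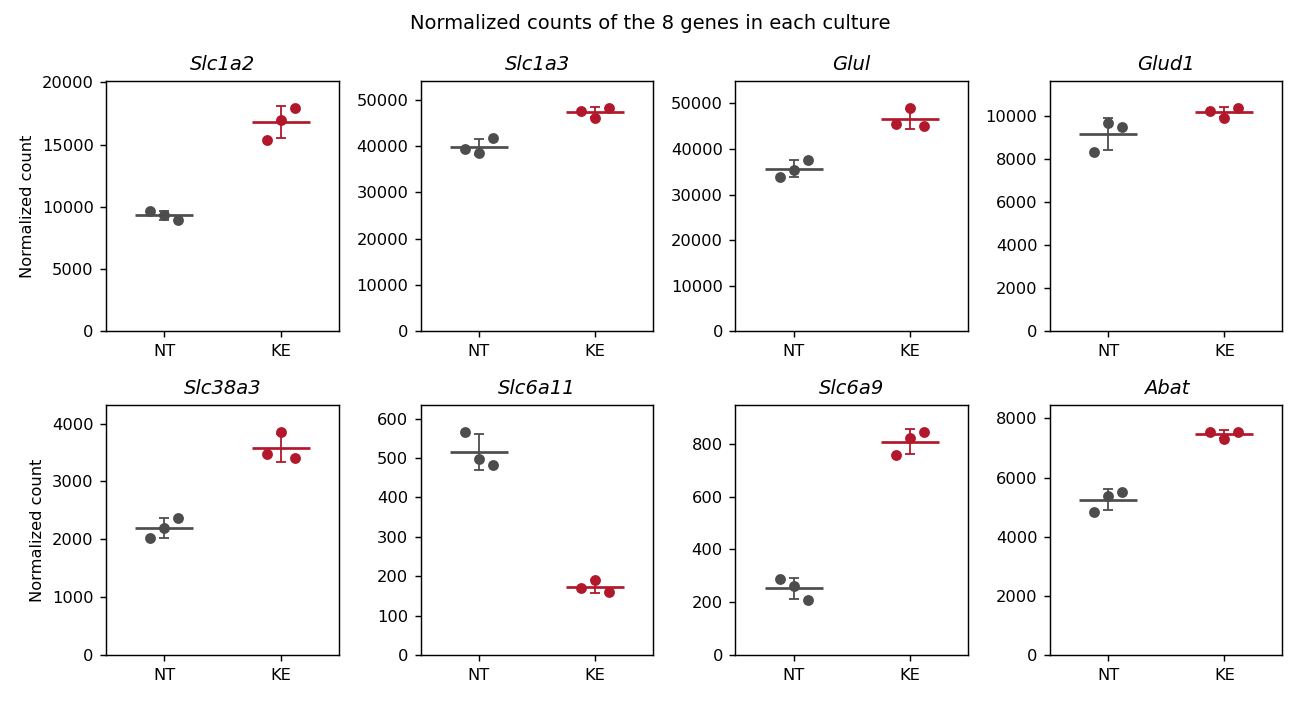
Normalized counts (y axis, from 0) of each of the 8 genes in the 3 NT cultures (grey) and the 3 KE cultures (red). Points are cultures, horizontal lines are means and bars are SD. Only Slc6a11 lies lower in KE, and in Glud1 the lowest KE culture (9911) is just above the highest NT culture (9681).

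Slc1a2, which encodes the glutamate transporter GLT-1, is found on chromosome 2 (GRCm39, plus strand, 102488574 to 102621129). Slc1a2 had 15393, 17009 and 17950 normalized counts in KE, while NT had 9690, 9332 and 8961. Every KE culture was far above every NT culture, with a gap of 5704 between the groups. KE averaged 16784 ± 1293 and NT 9328 ± 364 (SD, n = 3 each), a 1.80-fold difference. The log2FC was 0.85 (95% interval 0.70 to 0.99, limma adjusted p = 1.6e-06, by Benjamini-Hochberg over all tested genes).

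Slc1a3 encodes GLAST, the other main glutamate transporter of astrocytes, on the minus strand of chromosome 15 from 8663604 to 8741595. Slc1a3 was counted at 47588, 46194 and 48297 in KE and at 39298, 38451 and 41827 in NT. The groups did not overlap, but the difference was much smaller than that of Slc1a2. Means of 47360 ± 1070 (SD, n = 3) and 39859 ± 1757 (SD, n = 3) gave a log2FC of 0.25 (95% interval 0.12 to 0.38, limma adjusted p = 0.00523). The call for Slc1a3 was lost with quantile normalization (log2FC 0.09, limma adjusted p = 0.209) and with scaling to the astrocyte markers (log2FC 0.10, limma adjusted p = 0.298).

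The ratio of Slc1a2 to Slc1a3 within a culture does not depend on any single factor by which a culture is scaled. It was 0.324, 0.368 and 0.372 in KE and 0.247, 0.243 and 0.214 in NT. These are ratios of normalized counts without a correction for length, so only their change between groups can be read. The mean log2 ratio was higher in KE by 0.60, with no overlap between the groups (exact permutation test, two-sided p = 0.1, the smallest this design allows). With quantile normalization, which is not a single factor per culture, it was higher in KE by 0.71. The pair of transporters thus changed by unequal amounts in these cultures, with Slc1a2 gaining relative to Slc1a3 in 3 of 3 KE cultures.

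Glul encodes glutamine synthetase, the enzyme that makes glutamine from glutamate and ammonia, and lies on the plus strand of chromosome 1 from 153775690 to 153785469. It was counted at 45446, 49036 and 45086 in KE and at 33943, 35482 and 37673 in NT. All 3 KE values exceeded the highest NT value by at least 7413. With means of 46523 ± 2184 (SD, n = 3) and 35699 ± 1874 (SD, n = 3), the log2FC was 0.38 (95% interval 0.24 to 0.53, limma adjusted p = 0.000546).

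Glud1, on the plus strand of chromosome 14 from 34032583 to 34067642, encodes the mitochondrial glutamate dehydrogenase. Its normalized counts were 10262, 9911 and 10389 in KE and 8316, 9681 and 9479 in NT. The NT cultures were less even than the KE cultures, and NT replicate 1 was the lowest of the 6. The log2FC of 0.16 (95% interval 0.01 to 0.30) did not pass the test after adjustment (limma adjusted p = 0.0657), although it did when NT replicate 2 was left out (log2FC 0.20, limma adjusted p = 0.0442). Without NT replicate 1, the lowest culture, the log2FC was 0.09 (limma adjusted p = 0.24). On the opposite strand, Shld2 shares 717 bases with the annotated exons of Glud1, or 10.4% of them, and was 181 ± 24.9 in KE and 175 ± 12.5 in NT (SD, n = 3 each).

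Slc38a3 encodes SNAT3, a glutamine transporter of astrocytes, on the minus strand of chromosome 9 from 107527815 to 107547018. Normalized counts were 3480, 3864 and 3399 in KE and 2029, 2199 and 2363 in NT. The lowest KE culture was 1036 above the highest NT culture. KE averaged 3581 ± 249 and NT 2197 ± 167 (SD, n = 3 each), which is 1.63-fold with a log2FC of 0.71 (95% interval 0.54 to 0.87, limma adjusted p = 1.49e-05). Among the 8 genes, Slc38a3 and Slc1a2 thus had the largest rises after Slc6a9.

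The pair of genes for GABA moved in opposite directions. Slc6a11, which encodes the astrocytic GABA transporter GAT3, lies on the plus strand of chromosome 6 from 114108200 to 114226913. It was counted at 169, 191 and 161 in KE and at 567, 498.7 and 482 in NT. Every KE culture was far below every NT culture, with a gap of 291 between the groups. KE averaged 174 ± 15.6 and NT 516 ± 45.3 (SD, n = 3 each), so the KE level was 0.337 of the NT level. The log2FC was -1.57 (95% interval -1.81 to -1.32, limma adjusted p = 8.69e-07). In 5.6% of tested genes the absolute log2FC was larger.

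Abat encodes GABA transaminase, the mitochondrial enzyme that degrades GABA, on the plus strand of chromosome 16 from 8331233 to 8439996. In KE it had 7555, 7314 and 7535 normalized counts, and in NT 4845, 5391 and 5499. The KE cultures were nearly alike, with an SD of 134 around a mean of 7468. The NT mean was 5245 ± 351 (SD, n = 3), and the log2FC was 0.51 (95% interval 0.38 to 0.64, limma adjusted p = 3.91e-05).

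Slc6a9, which encodes the glycine transporter GlyT1, had the largest rise of the 8 genes. The gene lies on the plus strand of chromosome 4 from 117691703 to 117732395. It was counted at 756, 823 and 847 in KE and at 287, 263 and 208 in NT. The lowest KE culture had more than all NT cultures by a gap of 470, and the NT cultures were the more variable relative to their mean (coefficient of variation 16.0% against 5.79%). KE averaged 809 ± 46.8 and NT 253 ± 40.3 (SD, n = 3 each), which is 3.20-fold with a log2FC of 1.69 (95% interval 1.42 to 1.95, limma adjusted p = 8.01e-07). Several genes on the opposite strand share annotated exons with Slc6a9. Ccdc24 shares 1429 bases (23.5% of the Slc6a9 exons) and averaged 17.2 normalized counts, and B4galt2 shares 551 bases (9.07%). B4galt2 was 1074 ± 77.5 in KE and 1245 ± 31.3 in NT (SD, n = 3 each), a log2FC of -0.22 and thus in the other direction from Slc6a9. The library kit keeps the strand, but whether the counting used it is not given in the sources used here, so the value of Slc6a9 could include reads of these genes.

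**Figure D3:**
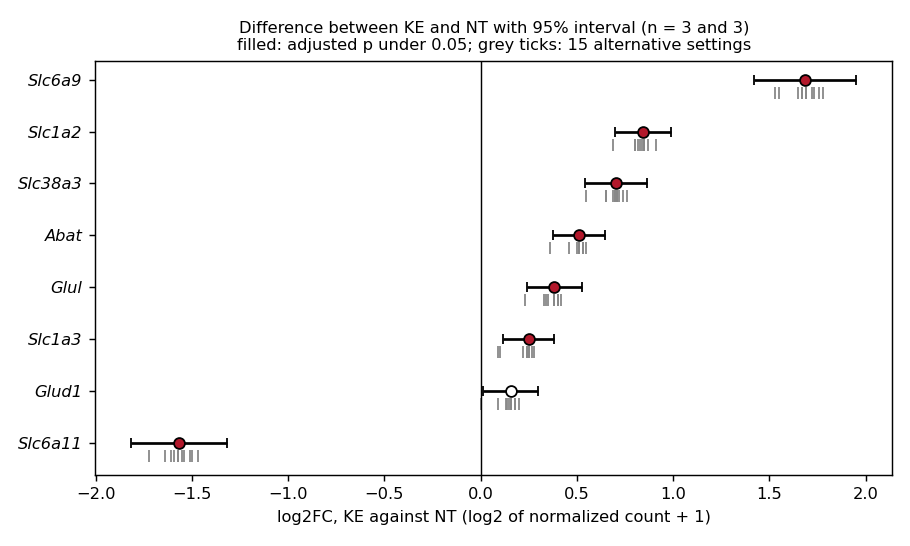
The log2FC of each of the 8 genes, KE against NT (x axis), with its 95% interval from limma. Filled points passed an adjusted p of 0.05, the white point did not, and grey ticks give the values under 15 alternative settings. The 8 genes run from -1.57 (Slc6a11) to 1.69 (Slc6a9).

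To show the regulatory sequence of the pair of transporter genes with the largest changes, and of the most abundant gene, the 250 bases before a start site annotated by RefSeq are printed 5′ to 3′ on the strand of the gene. Capitals mark the motifs found on either strand among 4 searched: AP-1 (TGANTCA), ETS (CCGGAAG), ISRE-like (GAAANNGAA) and the GC box (GGGCGG). The windows were taken from the RefSeq table of GRCm38.p6 and placed on GRCm39 by an exact match, which was unique for each. They lie at chr6:114107952-114108201 (Slc6a11), chr4:117692205-117692454 (the first of 3 listed starts of Slc6a9) and chr1:153775425-153775674 (Glul), all on the plus strand.
Slc6a11: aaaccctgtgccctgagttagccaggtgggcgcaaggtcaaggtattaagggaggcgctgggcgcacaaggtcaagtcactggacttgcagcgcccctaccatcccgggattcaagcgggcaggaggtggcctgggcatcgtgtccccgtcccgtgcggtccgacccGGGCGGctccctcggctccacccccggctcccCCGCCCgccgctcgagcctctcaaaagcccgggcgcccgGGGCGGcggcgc
Slc6a9: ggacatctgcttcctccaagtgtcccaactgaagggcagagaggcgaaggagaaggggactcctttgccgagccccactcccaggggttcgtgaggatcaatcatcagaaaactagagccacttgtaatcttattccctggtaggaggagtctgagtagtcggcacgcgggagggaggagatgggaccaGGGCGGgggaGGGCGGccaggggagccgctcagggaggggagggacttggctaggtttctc
Glul: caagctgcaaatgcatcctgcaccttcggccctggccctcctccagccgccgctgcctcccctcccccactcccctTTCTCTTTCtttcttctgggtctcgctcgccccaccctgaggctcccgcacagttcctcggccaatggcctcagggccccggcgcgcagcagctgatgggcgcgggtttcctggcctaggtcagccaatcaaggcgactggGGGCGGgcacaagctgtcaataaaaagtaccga

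The Slc6a11 window held 3 GC boxes, beginning 83, 51 and 12 bases before the start site, and the Slc6a9 window held 2, at 61 and 51 bases. The Glul window held 1 GC box at 33 bases and 1 ISRE-like match at 174 bases. Among 32851 windows of the same length over all genes in the table, a GC box was found in 32.7% and an ISRE-like match in 7.13%. The Slc6a11 window was rich in CpG, with 25 CpG dinucleotides against a median of 6 over all windows, while the Slc6a9 window held 9 and the Glul window 15. RefSeq starts were matched for 6 of the 8 genes, 8 starts in all, and the table was searched in the same way for each. Measured from the annotated gene start, the Slc1a2 start lies 48209 bases inside the gene and that of Slc1a3 1304 bases inside. Those of Slc6a9 lie 752, 14844 and 21041 bases inside. The sequence just before the annotated start of these genes was thus not searched. An ETS match was found in Glud1 alone, where 6.91% of all windows hold one, and no AP-1 match was found in the 8 windows, where 6.75% of all windows hold one. These matches describe letters in the windows and not binding, and which start sites the cultures used was not measured.

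**Figure D4:**
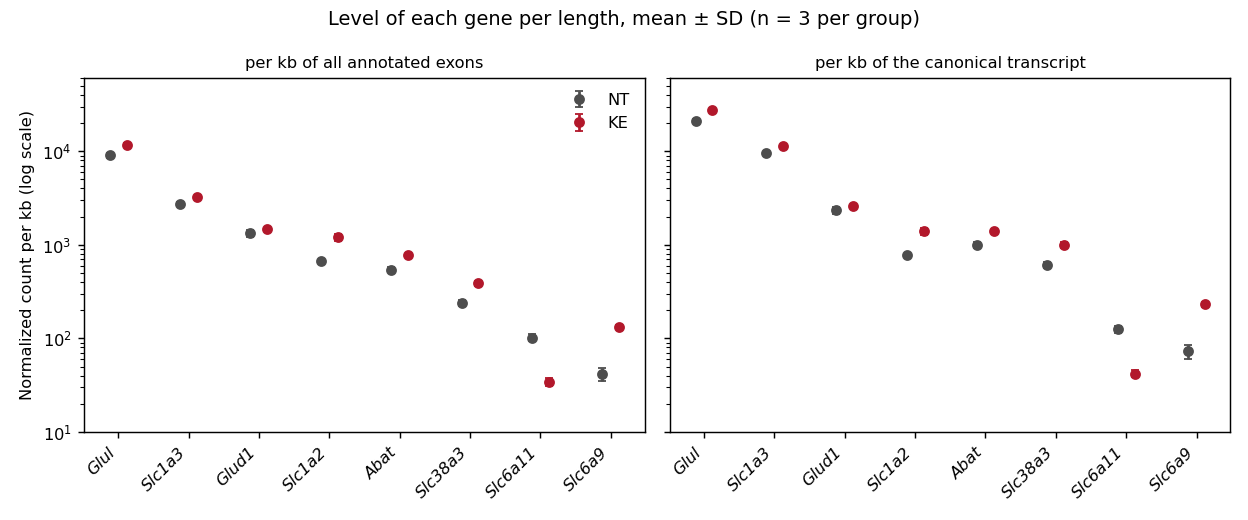
Level of each gene as normalized count per kb (y axis, log scale), mean ± SD of 3 NT (grey) and 3 KE (red) cultures, divided by the length of all annotated exons (left) or of the canonical transcript (right). Glul is highest and Slc38a3, Slc6a11 and Slc6a9 are lowest by both lengths, and Slc6a11 and Slc6a9 exchange places between NT and KE.

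Levels can be compared between genes only per length, and here the normalized counts were divided by the length of all exons annotated for a gene in Gencode vM39. On this scale Glul was the highest of the 8, at 11780 ± 553 normalized counts per kb in KE and 9042 ± 475 in NT (SD, n = 3 each). Slc1a3 followed at 3245 ± 73.3 in KE and 2731 ± 120 in NT, then Glud1 at 1483 ± 36.0 and 1334 ± 107, and Slc1a2 at 1199 ± 92.4 and 667 ± 26.0. The level of GLAST transcripts was thus above that of GLT-1 transcripts in both groups. Abat (775 in KE and 544 in NT) and Slc38a3 (388 and 238) were lower still. The order at the bottom was not the same in the groups: Slc6a11 was at 102 ± 8.97 and Slc6a9 at 41.6 ± 6.63 per kb in NT, and Slc6a9 was at 133 ± 7.70 and Slc6a11 at 34.4 ± 3.08 per kb in KE. With the canonical transcript as the length, Abat (1420 ± 25.4) and Slc1a2 (1396 ± 107) did not differ beyond their spread in KE, and Abat stood above Slc1a2 in both groups, while the other genes kept their order.

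The profile of Slc6a9, the gene with the largest absolute log2FC of the 8, was compared with that of 12064 other genes with a mean of at least 100 normalized counts. The measure was the Euclidean distance between log2 values over the 6 cultures, after the mean of each gene had been subtracted. The nearest genes were Fbxl2 (distance 0.03), Rnf213 (0.10), Dtx3l (0.14), Ddx58 (0.17) and Mitd1 (0.18). Fbxl2, for example, was counted at 284, 305 and 321 in KE and at 108, 98.9 and 79.2 in NT, and like Slc6a9 it was lowest in NT replicate 3. With 6 cultures in 2 groups, the genes nearest in this measure also have a log2FC of similar size, which ran from 1.61 (Dtx3l) to 1.74 (Rnf213).

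A further 48 genes for the handling of glutamate, glutamine, GABA and glycine were listed by their roles, and 40 of them passed the mean filter. Of these 40, 14 were higher and 15 lower in KE, and 11 were not called, which is 29 called where 51.3% of all tested genes were. Their median log2FC was 0.03, against 0.45 for the 8 genes above and 0.00 for all tested genes. The largest changes were spread over several roles.

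Among 6 tested transporters of glutamate, neutral amino acids and cystine, 3 were higher and 1 was lower. Slc7a11 encodes xCT, the light chain of the exchanger that imports cystine and exports glutamate, and was 20114, 18166 and 22762 in KE and 6187, 5441 and 5663 in NT. Every KE culture was far above every NT culture, with a log2FC of 1.82 (95% interval 1.63 to 2.00, limma adjusted p = 3.02e-08). Slc3a2, the heavy chain that xCT pairs with, was 12504, 12863 and 13040 in KE and 6316, 6812 and 6465 in NT (log2FC 0.97, limma adjusted p = 1.24e-07). Both subunits of the exchanger were therefore higher in every KE culture. Slc1a5, which encodes a glutamine and neutral amino acid transporter, was lower (log2FC -0.61, limma adjusted p = 0.000708).

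Of 5 other glutamine transporter genes, 4 were tested, with 1 higher and 3 lower in KE. Slc7a8, a light chain that also pairs with Slc3a2, was 334, 497 and 388 in KE and 1318, 1410 and 1308 in NT (log2FC -1.74, limma adjusted p = 8.03e-07). Slc38a2, which encodes SNAT2, had a log2FC of -0.61 (limma adjusted p = 3.31e-05), and Slc7a5, another light chain partner of Slc3a2, one of 0.55 (limma adjusted p = 2.26e-05). The light chains thus differed in direction, Slc7a11 and Slc7a5 being higher and Slc7a8 lower.

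All 9 other enzymes of glutamate and glutamine were tested, 4 of them higher, 3 lower and 2 not called. Asns, the asparagine synthetase that uses glutamine, was higher (log2FC 0.78, limma adjusted p = 1.63e-06). Gpt, an alanine transaminase, was lower (log2FC -0.61, limma adjusted p = 0.0296) at a low level of 54.6 ± 4.74 in KE and 85.1 ± 18.8 in NT (SD, n = 3 each). The mitochondrial carriers gave 1 higher and 2 lower of 4. Slc25a22, which carries glutamate into mitochondria, was 1463, 1882 and 1672 in KE and 602, 739 and 582 in NT, with no overlap and a log2FC of 1.38 (limma adjusted p = 1.98e-06). The aspartate and glutamate exchangers Slc25a13 and Slc25a12 were lower, with log2FC of -0.57 and -0.27.

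Among 6 other GABA genes, 4 were tested, with 0 higher and 2 lower in KE, among them Aldh5a1. Aldh5a1 encodes the enzyme that acts after Abat in GABA breakdown, and its log2FC was -0.50 (limma adjusted p = 0.00122), opposite to that of Abat. Gad1, which encodes an enzyme of GABA synthesis, was 263, 295 and 523 in KE and 217, 279 and 235 in NT, so that the groups overlapped (limma adjusted p = 0.0759). The vesicular transporters of neurons were near the floor: Slc17a6 is listed at 0 in all 6 cultures, and only Slc17a8 of 4 was tested, with no call.

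Among the genes for glycine, 6 of 7 were tested, with 1 higher, 3 lower and 2 not called. Shmt1, a cytosolic enzyme that interconverts serine and glycine, was 598, 583 and 644 in KE and 1290, 1267 and 1366 in NT (log2FC -1.10, limma adjusted p = 4.79e-07). Of the glycine cleavage system, Gldc was higher (log2FC 0.39) and Gcsh lower (log2FC -0.40).

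The sodium pump maintains the gradient that drives these transporters, and 4 of its 6 subunit genes were higher, 1 lower and 1 not called. Atp1b2, the beta subunit typical of astrocytes, was 10168, 10573 and 10700 in KE and 5192, 5322 and 5534 in NT (log2FC 0.97, limma adjusted p = 1.17e-07). All 3 KE cultures were far above the 3 NT cultures.

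**Figure D5:**
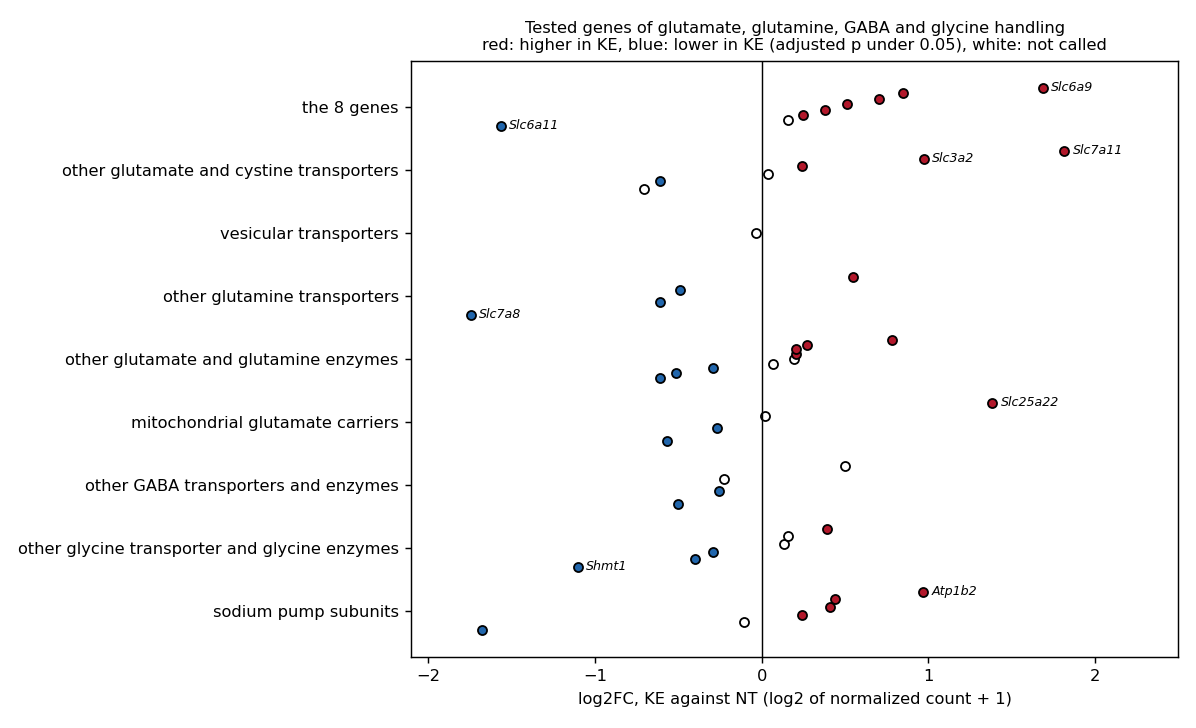
The log2FC, KE against NT (x axis), of the 8 genes and of the 40 tested genes of 8 further lists. Red points were called higher in KE, blue points lower, and white points were not called, and the genes of the text beyond an absolute log2FC of 0.9 are named. Slc7a11, Slc25a22, Slc3a2 and Atp1b2 lie to the right with Slc6a9, and Slc7a8 and Shmt1 to the left with Slc6a11.

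The 8 genes were also set against the astrocyte markers, an alternative chosen after the data were seen. With each culture scaled to the mean log2 level of the 11 tested astrocyte markers, the log2FC was 1.53 for Slc6a9, 0.69 for Slc1a2, 0.55 for Slc38a3, 0.36 for Abat, 0.23 for Glul and -1.72 for Slc6a11, and all 6 kept their calls. Slc1a3 (0.10) and Glud1 (0.00) were not called on this scale. This scaling moves the median of all tested genes to -0.15, and 28.2% of the calls over all genes were then higher in KE, where 49.3% were with the deposited scaling. The mean log2 level gives each marker the same weight, including the low S100b (log2FC -0.60). By summed normalized counts, the astrocyte markers were 1.32 times as high in KE as in NT, and the 8 genes 1.30 times. Whether the calls hold relative to that sum was not tested.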

How the data were processed

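RNA-seq values of 6 mouse astrocyte cultures, 3 KE and 3 NT, were analysed as deposited. The authors deposited 1 normalized signal per gene and culture, gene counts divided by DESeq2 size factors. The authors, per the labels, used Trim Galore, STAR, Salmon and DESeq2. The supplemental methods give GRCm39 with Gencode for mouse samples, while the labels list GRCh38. Versions of aligner and counter are not given in the sources used here. Size factors assume that most genes do not change and remove the sequencing depth. In these data 51.3% of tested genes were called, 25.3% higher and 26.0% lower in KE, and whether the assumption holds was not tested. An approximate depth came from the total and the commonest low value of a culture, taken as 1 read. Of values below 20 such steps, 74.7% to 77.6% were within 0.1 of a whole number, too few to recover reads for a count model.

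limma 3.58.1 (R 4.3.3) was used on log2(normalized count + 1), with group as the only factor and a trended variance. The 15280 genes averaging 10 or more were tested, with two-sided p-values adjusted by Benjamini-Hochberg over all of them and a threshold of 0.05. The added 1 makes the log2FC of low genes smaller than their true change. The fit was tested on simulated data for this comparison with 15280 genes. It recovered 64% of 50 genes changed by a log2FC of 0.5, 76% of 100 genes changed by 1 and 92% of 50 genes changed by 2, and called 7 of 15080 unchanged genes. With the replicate number as a block, recovery was 32%, 72% and 86% in the same order, and 3 unchanged genes were called. Far fewer genes were changed in the simulation than the 51.3% of tested genes called in the data. The adjustment is stricter where few genes change, so these recovery rates need not hold for the real comparison. Coordinates and exon lengths come from Gencode vM39 on GRCm39, in which 54749 of 55357 gene identifiers were found.

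The 8 genes, the other gene lists and the marker lists were chosen with earlier results of these data known. Named are the 8 genes, Braf, the called genes with the 3 largest absolute log2FC of each further list and any at 0 in all cultures, the 2 highest markers of a list, and the 5 nearest profiles to Slc6a9. Some genes that this rule would name, and the ratios that need them, are not reported here. A few further genes (Gad1, Tubb3, Nefl, Gja1, Fgfr3, Slc17a8, S100b, Gjb6 and genes overlapping a member) were named after their values were seen. Alternatives were other pseudocounts (0.5 and 5), no filter or a mean of at least 50, quantile normalization, a common 75th percentile, an untrended variance, the replicate number as a block, leaving out each culture in turn and scaling to the astrocyte markers.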

Additional observations from a re-analysis of the deposited data

How the results depend on the processing

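Under 15 alternatives, 235 recomputed values had the direction and call reported above, or a count within 1.5 times of it, and the exceptions follow. Slc1a3 lost its call with quantile normalization (log2FC 0.09, limma adjusted p = 0.209) and with scaling to the astrocyte markers (log2FC 0.10, limma adjusted p = 0.298), and its adjusted p ran from 0.00348 to 0.298 over 15 alternatives. Glud1 gained a call without NT replicate 2, and leaving out each culture in turn gave it a log2FC of 0.09 to 0.20, with an adjusted p of 0.0442 to 0.984 over all alternatives. Scaling to the astrocyte markers, chosen after seeing the data, left 2170 of all genes and 9 of the 40 further handling genes called higher in KE, which follows from the lower median of all genes on that scale. The other causes were not tested. Leaving out each culture gave 6 to 7 of the 8 genes called higher and 1 called lower.

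With the replicate block, 6 of the 8 genes were called higher and 1 lower, which changed no call among the 8. Over all genes, 3967 were called higher and 4079 lower with the block, against 3870 and 3974 without it. Same-numbered KE and NT cultures had correlations of 0.0589, 0.0664 and 0.0651 across genes in their deviations from the group means, against at most -0.0105 for cultures of different numbers. Every culture thus correlated best with its own number, a hint from the data that the labels do not state. All of these correlations were small. Deviations from a group mean cancel out within the group, so positive values for same-numbered cultures force negative ones elsewhere. The negative values are therefore no separate evidence. Since only an approximate depth is known, no counting interval is given.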
